A study of Mus musculus with 30 samples.

Results

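The comparison described here set mouse embryonic stem cells (ESCs) kept for 9 h in Enhanced Metabolic Media (EMM) against the same cells in Serum/LIF, gene by gene over the whole transcriptome. Its members were the 3 libraries labelled EMM at 9 h and the 3 labelled Serum/LIF at 0 h, which are 6 of the 12 libraries of an RNA-seq time course and 6 of the 30 samples analysed. All libraries of the time course came from the feeder-free line E14tg2a, grown with serum and the cytokine LIF (leukemia inhibitory factor). EMM is the Serum/LIF medium with D-glucose and pyruvate replaced by D-galactose, so serum, LIF and glutamine were present in both groups. The other 6 libraries of the time course were taken at 3 h and 24 h of EMM, and 12 libraries from cultures passaged for the long term in EMM or Serum/LIF were used for a comparison of genes called at 9 h. The labels give the control as 0 h, while the description of the treatment speaks of 24 h for Serum/LIF, so the time since the last medium change and the change of sugar cannot be told apart in this contrast. Galactose reaches glycolysis only after a chain of conversions, the Leloir pathway, and much more slowly than glucose, so that cells given galactose rely on mitochondrial respiration of other fuels such as glutamine.

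Several sensing systems are known to read such a shift. The paired transcription factors MondoA (Mlxip) or ChREBP (Mlxipl) with Mlx respond to glucose-6-phosphate and drive the arrestin-domain gene Arrdc4. The MiT/TFE factors (Tfeb, Tfe3, Mitf) are held in the cytoplasm by the kinase complex mTORC1 on lysosomes and, once released, transcribe genes of lysosomes and autophagy. The integrated stress response acts through translation of the factor ATF4, which transcribes genes for amino acid synthesis, amino acid import and tRNA charging. In ESCs these programs sit beside the network of pluripotency factors and the genes of the neighbouring lineages, primitive endoderm and trophectoderm.

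Total counts ran from 24074132 to 29316186 in Serum/LIF and from 28284399 to 32501341 at 9 h. Values below are normalized counts, that is counts divided by the library's effective size and scaled to the mean effective size of the 12 libraries, so they compare libraries for one gene and not genes with each other. Log2 fold changes, their standard errors (SE) and adjusted p-values came from edgeR's quasi-likelihood test with Benjamini-Hochberg adjustment over the 16049 genes tested. The libraries did not separate by label alone. By chi-square per degree of freedom over genes, EMM 9 h replicate 3 stood 9.59 to 10.5 from the other 9 h libraries, the Serum/LIF libraries stood 9.18 to 11.1 from one another, and Serum/LIF stood 32.5 to 42.5 from 9 h. Pairs of 1 group within one of the sets that follow stood at 1.99 to 2.70. Replicate 3 of 9 h sat with Serum/LIF replicate 3 and with 24 h replicates 2 and 3, while replicates 1 and 2 sat with Serum/LIF replicate 2, all of 3 h and 24 h replicate 1, and Serum/LIF replicate 1 stood alone. No label gives this split, so the sets were defined from the data. In 9 h replicate 3, 42 of 12133 genes with a mean of 50 or more lay above the other 9 h libraries by over 1 on the log2 scale and 2 lay below. The 42 had a median exon length of 940 bases against 4483.5 for all such genes, for example the ribosomal protein gene Rpl36 (1613, 1687 and 12860 in the 3 libraries), and 0 of them were among the genes called at 9 h. With the 3 sets as a covariate, 296 of 329 higher and 504 of 561 lower calls were called again. By construction that covariate takes out the spread that defined the sets. Neither its p-values nor its counts, here or below, are therefore an independent check. Of the 175 genes set out for naming, 31 overlap another tested gene in the annotation. The use of strand in counting is not stated, so reads of such pairs cannot be told apart, and the partner is named beside the main ones.

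The ESC identity of the samples was checked against its defining markers. Pou5f1, Sox2, Nanog, Zfp42, Esrrb and Dppa5a were abundant in each of the 6 libraries, the lowest value being 11736 for Nanog. Of 6 ESC markers, 1 was higher and 3 were lower at 9 h by adjusted p, and their summed level went from between 141822 and 142704 in Serum/LIF to between 135309 and 135694 at 9 h. Blood markers were at or near 0 for Ptprc, Hbb-bt, Hbb-bs and Hba-a1, and neither of the 2 that could be tested passed (summed level 124 to 140 and 101 to 130). Of fibroblast markers 1 of 6 was higher and 2 were lower (1 of 7 each without Serum/LIF replicate 1), with a summed level of 1924 to 2022 in Serum/LIF and 1746 to 1875 at 9 h. Of endothelial markers 2 of 5 were higher and 1 was lower (1605 to 1727 and 1955 to 2000), and Cdh5 stood at 11.8 or less in all 6 libraries. Of neural markers 3 of 4 were higher (4096 to 4904 and 5050 to 5892), among them Pax6, and the neuronal markers Dcx and Neurog2 stood at 2.84 or less in all 6 libraries. The part of these cell types in the results was not tested, and in bulk RNA more cells of a type and more RNA per cell cannot be told apart.

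At 9 h, 329 genes were called higher and 561 lower than in Serum/LIF, a call being an adjusted p below 0.01 together with a change of more than 1 on the log2 scale in either direction, so 63.0% of the 890 called genes were lower. These are 2.05% and 3.5% of all genes tested. Without the fold threshold, 2967 genes (18.5%) were higher and 3164 (19.7%) lower, and the median log2 fold change of all genes was -0.0046. The called genes were mostly of low level, with a median of 70.9 normalized counts in the higher group for genes that rose and 59.3 for genes that fell, against 531.6 for all genes tested. A change of 4-fold or more was reached by 37 genes that rose and 57 that fell. The libraries of the 2 groups did not overlap for 887 of the 890, and for 55.6% of all genes tested. Among the called genes, 10 were at 3 counts or fewer in every Serum/LIF library and 6 were so in every 9 h library, and no fold is given for these. By chromosome, the median log2 fold change lay between -0.037 and 0.055.

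**Figure D1:**
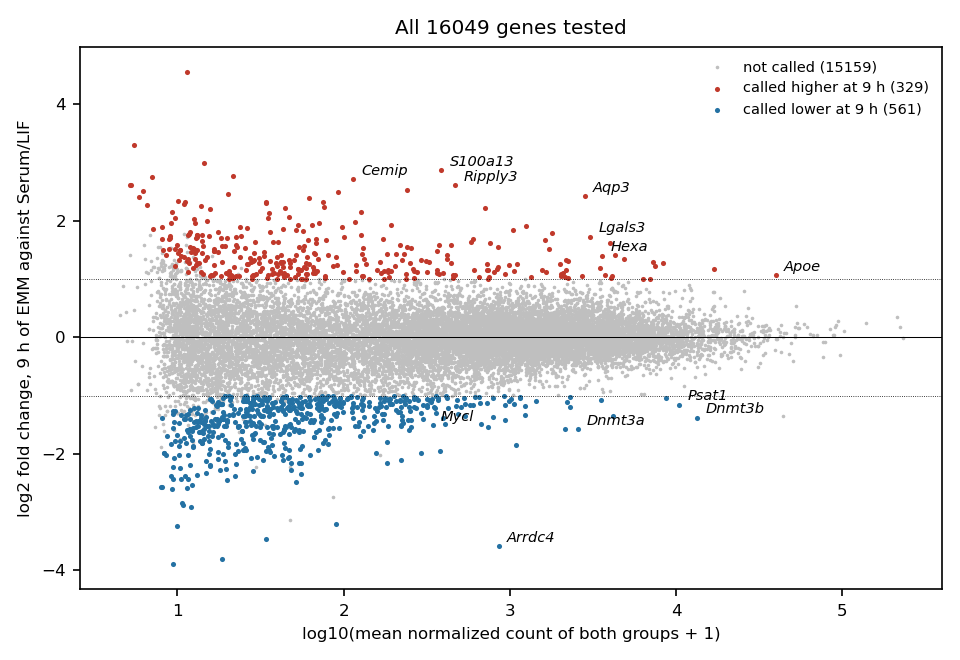
Log2 fold change at 9 h of EMM against Serum/LIF (vertical axis) against the log10 mean normalized count of both groups plus 1 (horizontal axis) for the 16049 genes tested, 1 point per gene, with the 329 genes called higher in red, the 561 called lower in blue and the log2 threshold of 1 dotted. Most called genes lie to the left, and Arrdc4, Dnmt3b, Dnmt3a, Psat1, Lgals3 and Apoe are called genes of higher level.

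The largest rise among genes with a mean of 50 or more was that of S100a13 (chr3:90514435-90524581), a small calcium-binding protein that helps export FGF1. It stood at 94.5, 85.9 and 98.5 in the 3 Serum/LIF libraries and at 697, 661 and 678 at 9 h, higher by 2.87 on the log2 scale (SE 0.07, adjusted p = 2.92e-13, edgeR). The groups were far apart and each was tight. Cemip, which degrades hyaluronan, went from 24.2, 29.6 and 34.7 to 224, 186 and 175, and Tll1, a protease that matures extracellular matrix and frees BMPs, from 21.8, 26.7 and 33.6 to 163, 135 and 168. Both were higher in every 9 h library, by 2.72 (SE 0.17, adjusted p = 1.18e-08) and 2.49 (SE 0.18, adjusted p = 2.92e-08, edgeR).

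Ripply3 (chr16:94328420-94336935), a transcriptional corepressor partnering T-box factors, stood at 130, 133 and 132 in Serum/LIF and at 890, 761 and 763 at 9 h (log2 fold change 2.61, SE 0.08, adjusted p = 9.02e-12, edgeR). Aqp3 (chr4:41092722-41098183), a channel for water and glycerol, was the most highly counted of the large rises, from 886 ± 67.3 (SD, n = 3) to 4760 ± 420, by 2.42 (SE 0.07, adjusted p = 7.41e-12, edgeR). The homeobox genes Meis2 (19.2 ± 3.10 to 102 ± 6.34) and Vax2 (24.7 ± 3.48 to 124 ± 8.33), the receptors Gpr143 and Gpr139, the BMP antagonist Grem1 (13.3, 11.8 and 7.83 to 58.1, 53.1 and 53.9), Fam189a2 and Spink10 made up the rest of the 12 largest rises, between 2.22 and 2.53. Vax2 overlaps Vax2os.

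Other genes with very small p-values stood at a higher level and changed less than S100a13. Fabp3 (chr4:130308595-130315463), a cytoplasmic carrier of fatty acids, went from 775, 850 and 778 to 2827, 2709 and 2760 (log2 fold change 1.79, SE 0.04, adjusted p = 2.92e-13, edgeR). Lgals3 (chr14:47367751-47386160), the galactoside-binding lectin galectin-3, went from 1521, 1401 and 1297 to 4698, 4702 and 4608, by 1.73 (SE 0.05, adjusted p = 5.16e-12). The surface peptidase gene Mme rose from 2740 ± 136 to 6972 ± 131, by 1.35 (SE 0.04). In all 3 the 9 h libraries lay within a narrow band well above Serum/LIF. Fabp3 overlaps Zcchc17.

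The largest fall was that of Arrdc4 (chr7:68736995-68749241), an arrestin-domain adaptor that limits glucose uptake. It stood at 1519, 1599 and 1615 in Serum/LIF and at 125, 135 and 137 at 9 h (log2 fold change -3.58, SE 0.08, adjusted p = 2.92e-13, edgeR). Of the other large falls, Spn, the sialoglycoprotein CD43, went from 306, 306 and 273 to 61.8, 77.7 and 58.0, and Meioc, a meiotic factor, from 335, 361 and 377 to 91.7, 87.2 and 68.4. Bcas1, the embryonic myosin Myh3, the dynein chain Dnah2, the exchanger Slc24a1, the protease Prss50, Cd37, Bcl2l14 and the MHC class I gene H2-M3 fell by between 2.07 and 2.48 on the log2 scale from Serum/LIF means of 68.9 to 90.4. The fall of the histone gene Hist1h3e rested on a single library, with 159, 8.88 and 14.5 in Serum/LIF and 4.54, 3.79 and 7.26 at 9 h (log2 fold change -3.47, SE 0.97, adjusted p = 0.00784), and without Serum/LIF replicate 1 it was -1.14 and did not pass, nor did it pass without any 1 of the 9 h libraries. That library had a summed histone level of 2572, the other Serum/LIF libraries 646 and 863. It also stood apart in RNAs other than mRNA. The small nuclear RNA gene Rn7sk, called lower, stood at 417, 23.7 and 39.2 in Serum/LIF and at 12.7, 13.3 and 24.9 at 9 h, and mt-Rnr1, the small ribosomal RNA of mitochondria, also called lower, at 21266, 6960 and 7001 and at 5572, 5344 and 6286. Within the first and second library sets the log2 differences were -0.84 and -0.64 for Rn7sk and -0.35 and -0.16 for mt-Rnr1, all below the size of a call. These genes were picked after their values were seen. Without Serum/LIF replicate 1, 334 genes were called higher and 499 lower in all. Cd37 overlaps Tead2. Prps1, which makes the precursor of nucleotides, had one of the smallest p-values among falls, from 5983 ± 129 to 2345 ± 20.1 (log2 fold change -1.35, SE 0.04).

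Promoters of genes from the sensing programs are shown because the factors named above bind short known motifs. The E-box CACGTG, the same letters on both strands, is the core of sites for MiT/TFE factors and for MondoA, and TGATGNAA, searched on both strands, is the composite C/EBP-ATF site that ATF4 binds. The sequences are the 250 bases before the RefSeq start in GRCm38.p6, 5′ to 3′ on the strand of the gene, with the matching letters in capitals. The first 3 hold the E-box. The minus strand of chr7:68749239-68749488 gives
Arrdc4: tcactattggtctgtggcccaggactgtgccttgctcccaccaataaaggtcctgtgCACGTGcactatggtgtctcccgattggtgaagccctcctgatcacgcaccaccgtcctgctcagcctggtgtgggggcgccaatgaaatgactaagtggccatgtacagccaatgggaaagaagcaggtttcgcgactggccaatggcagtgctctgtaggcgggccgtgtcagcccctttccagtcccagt
The plus strand of chr8:13158911-13159160 gives
Lamp1: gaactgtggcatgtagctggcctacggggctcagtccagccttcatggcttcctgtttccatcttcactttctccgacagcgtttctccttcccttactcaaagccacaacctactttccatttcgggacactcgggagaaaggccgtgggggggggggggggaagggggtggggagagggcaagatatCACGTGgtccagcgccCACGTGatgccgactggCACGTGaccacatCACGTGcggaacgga
The plus strand of chr11:54437929-54438178 gives
Fnip1: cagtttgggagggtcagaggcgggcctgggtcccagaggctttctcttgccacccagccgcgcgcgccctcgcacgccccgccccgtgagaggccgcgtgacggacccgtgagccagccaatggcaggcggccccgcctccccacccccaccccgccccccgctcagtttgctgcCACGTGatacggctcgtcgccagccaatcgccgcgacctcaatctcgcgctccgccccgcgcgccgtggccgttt
The other 3 hold the C/EBP-ATF motif, read on the opposite strand in Chac1 and Pck2. The plus strand of chr2:119350992-119351241 gives
Chac1: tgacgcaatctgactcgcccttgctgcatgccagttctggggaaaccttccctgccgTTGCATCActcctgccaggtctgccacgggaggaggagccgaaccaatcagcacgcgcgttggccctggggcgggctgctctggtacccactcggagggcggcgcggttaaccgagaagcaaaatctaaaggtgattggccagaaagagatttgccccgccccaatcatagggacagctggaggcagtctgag
The plus strand of chr14:55540016-55540265 gives
Pck2: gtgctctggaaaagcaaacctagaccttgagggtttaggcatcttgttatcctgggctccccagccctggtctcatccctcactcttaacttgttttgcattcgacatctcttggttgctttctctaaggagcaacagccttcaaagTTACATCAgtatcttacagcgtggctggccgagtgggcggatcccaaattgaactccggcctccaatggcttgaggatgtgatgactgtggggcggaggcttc
The minus strand of chr11:120643749-120643998 gives
Pycr1: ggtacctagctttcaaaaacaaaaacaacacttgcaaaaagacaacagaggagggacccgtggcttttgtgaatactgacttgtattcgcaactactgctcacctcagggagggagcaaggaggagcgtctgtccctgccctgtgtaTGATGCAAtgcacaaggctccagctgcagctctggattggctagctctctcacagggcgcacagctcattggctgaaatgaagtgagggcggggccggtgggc

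In Lamp1 the E-boxes began 61, 45, 28 and 15 bases before the start, in Arrdc4 193 and in Fnip1 75, and the C/EBP-ATF match began 193 bases before the start in Chac1 and 103 in both Pck2 and Pycr1. The E-box was found in 6.021% of all 32851 promoter windows and in 8.118% of those of genes tested here. Of lysosome and autophagy genes, 37 matched a RefSeq promoter and 11 of them held the E-box, in 25.0% of their 44 windows. The C/EBP-ATF motif was in 3.452% of all windows and 1.992% of those of genes tested. Of stress response genes, 33 matched and 10 held it, in 26.316% of their 38 windows. Other pairs of motif and list were also above the share of genes tested. The E-box was in 13.158% of stress response windows and 13.889% of sterol and fatty acid synthesis windows. The C/EBP-ATF motif was in 4.545% of lysosome and autophagy windows and 8.333% of sterol and fatty acid synthesis windows. These shares describe the lists and do not use the fold changes at 9 h. The printed genes were chosen after their values were seen, and a match describes letters, not binding.

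Of 4 genes of glucose sensing tested, 0 were higher and 3 lower by adjusted p, against 18.5% and 19.7% of all genes, with a median log2 fold change of -0.77. The counts of every list below are to be set beside these same shares of all genes. For members past the fold threshold, the shares of all genes are 2.05% higher and 3.5% lower. Mlxipl (ChREBP) stood at 291, 287 and 286 in Serum/LIF and at 120, 122 and 123 at 9 h (log2 fold change -1.24, SE 0.08, adjusted p = 1.72e-08, edgeR). Its paralog Mlxip (MondoA) fell by 0.29 (SE 0.05, adjusted p = 0.000239) from 1622 ± 24.2 to 1324 ± 65.1, and their shared partner Mlx stood at 1208 ± 35.2 and 1255 ± 43.4, with an adjusted p of 0.383. Another well-known target, Txnip, was not analysed here. The change of Arrdc4, whose promoter is printed above, exceeded that of the factors.

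Most genes of lysosomes rose, with fewer of autophagy. Of 47 tested, 37 were higher and 2 lower by adjusted p, against 18.5% and 19.7% of all genes, and 3 passed the fold threshold. The median log2 fold change was 0.56, and the summed level went from between 131836 and 136519 in Serum/LIF to between 196334 and 203783 at 9 h. The counts were 37 and 2 without 9 h replicate 3, and 37 and 2 without Serum/LIF replicate 1. By role, 18 of 19 genes of lysosomal enzymes and membrane proteins, 7 of 7 V-ATPase subunits (the proton pump), 7 of 8 regulators and 5 of 13 autophagy genes were higher.

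Hexa (chr9:59539540-59565109), a subunit of the lysosomal hexosaminidase, stood at 2040, 1854 and 2000 in Serum/LIF and at 5216, 4949 and 5439 at 9 h (log2 fold change 1.41, SE 0.06, adjusted p = 8.69e-11, edgeR). Every 9 h library was above every Serum/LIF library, as in the 4 genes that follow. Grn, the precursor of lysosomal granulins, went from 4208, 4338 and 4138 to 8860, 8387 and 8175. Lamp1 (chr8:13159161-13175338), a major membrane glycoprotein of lysosomes with 4 E-boxes in its promoter, went from 12529, 12489 and 12357 to 21254, 20852 and 22114 (log2 fold change 0.78, SE 0.04, adjusted p = 6.01e-10). The protease cathepsin L (Ctsl) rose by 0.81 (SE 0.04), and Npc2, which exports cholesterol from lysosomes, by 0.89 (SE 0.09) with 9 h libraries of 6754, 6357 and 5383. Grn overlaps Fam171a2 and Lamp1 overlaps Grtp1. Of the pump, Atp6v0d1 went from 3733 ± 99.9 to 6317 ± 91.8 (log2 fold change 0.76, SE 0.04). The calcium channel Mcoln1 rose from 1146 ± 109 to 1909 ± 114, by 0.74 (SE 0.06).

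Among regulators, Tfeb (chr17:47737030-47792419) stood at 1792, 1763 and 1581 in Serum/LIF and at 3270, 3177 and 2777 at 9 h (log2 fold change 0.85, SE 0.06, adjusted p = 4.06e-08, edgeR). Its paralog Tfe3 moved the other way, from 4783, 4915 and 4361 to 3426, 3448 and 3267 (log2 fold change -0.47, SE 0.05, adjusted p = 4.6e-06). Mitf rose by 0.61 (SE 0.09). Fnip1, part of the complex that sets the nucleotide state of RagC, went from 1597, 1817 and 1973 to 3105, 3174 and 3080, by 0.80 (SE 0.06, adjusted p = 4.04e-08), and Rragc itself rose by 0.78 (SE 0.03). Of autophagy genes, the receptor Sqstm1 (p62) rose from 6589 ± 310 to 10431 ± 735, by 0.66 (SE 0.05), whereas Wipi1, needed to form autophagosomes, fell by 0.59 (SE 0.09), the other of the 2 falls in the list. Of the list, 21 of 47 members were higher at 9 h than at 3 h by adjusted p and 3 lower, where 2191 and 2065 of all 16049 genes were. Tfeb was among the 3, with 4134 ± 42.1 at 3 h.

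Targets of the integrated stress response fell. Of 41 tested, 1 was higher and 30 lower by adjusted p, against 18.5% and 19.7% of all genes. Of the falls, 8 passed the fold threshold, as did 3.5% of all genes. The median log2 fold change was -0.46, and the summed level went from between 212670 and 219709 to between 157466 and 165571. Leaving out 9 h replicate 3 or Serum/LIF replicate 1 gave 0 higher and 28 lower each, and the sets as a covariate gave 2 and 31. In amino acid supply 17 of 18 genes were lower, in tRNA charging 7 of 8, among feedback genes and effectors 4 of 8, and among the transcription factors 2 of 7.

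Psat1 (chr19:15904678-15947337), which makes phosphoserine, stood at 14357, 14622 and 14050 in Serum/LIF and at 6131, 6773 and 6473 at 9 h (log2 fold change -1.15, SE 0.04, adjusted p = 3.14e-11, edgeR). The steps before and after it in serine synthesis fell as well, Phgdh from 4246 ± 165 to 2556 ± 58.9 (log2 fold change -0.73, SE 0.04) and Psph from 1705 ± 73.5 to 757 ± 46.1 (-1.17, SE 0.06). Aldh18a1, the first enzyme of proline synthesis, went from 3122, 3228 and 3239 to 1403, 1393 and 1375, by -1.20 (SE 0.04), and Pycr1, the last, from 648, 707 and 596 to 314, 330 and 285, by -1.07 (SE 0.08). In both the groups were well apart. Psph overlaps Cct6a.

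Chac1 (chr2:119351229-119354381), which degrades glutathione, had the largest fall of the list. It stood at 1035, 1014 and 899 in Serum/LIF and at 320, 393 and 342 at 9 h (log2 fold change -1.48, SE 0.08, adjusted p = 1.38e-09, edgeR). Pck2 (chr14:55540266-55551242), the mitochondrial PEP carboxykinase, went from 1833, 1722 and 1730 to 634, 734 and 731, by -1.33 (SE 0.06, adjusted p = 2.38e-10). The mitochondrial folate enzyme Aldh1l2 went from 89.6, 108 and 114 to 47.2, 37.0 and 36.3, by -1.37 (SE 0.18). Every 9 h library of these was below every Serum/LIF library. Asparagine synthetase (Asns) fell less, from 7422 ± 240 to 5340 ± 317, by 0.48 on the log2 scale (SE 0.05), and the cysteine tRNA synthetase Cars by 0.64 (SE 0.04).

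The ATF4 transcript (Atf4) itself changed little, from 9861, 9983 and 9887 to 8653, 9110 and 9103 (log2 fold change -0.15, SE 0.04, adjusted p = 0.00397, edgeR), and it did not pass when any Serum/LIF replicate, or 9 h replicate 1 or 3, was left out (-0.14 to -0.11). ATF4 is set mostly by translation, which was not measured. Ddit3 (CHOP), a factor of terminal stress, stood at 306, 228 and 376 in Serum/LIF and at 294, 293 and 551 at 9 h, so the groups overlapped (log2 fold change 0.32, adjusted p = 0.326, and -0.03 without 9 h replicate 3), and the gene overlaps Mars. Serum/LIF replicate 3 and 9 h replicate 3, which share a library set, were both high. With the sets, defined from the same counts, as a covariate, Ddit3 passed as higher (log2 fold change 0.47, SE 0.08, adjusted p = 3.3e-05, edgeR), which is not an independent check. The 1 rise without that covariate was of Vldlr, a lipoprotein receptor, by 0.43 (SE 0.10, adjusted p = 0.00246), which did not pass without Serum/LIF replicate 1 or 9 h replicate 2 or 3 (0.35 to 0.41).

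Genes of sterol synthesis rose modestly. Of 38 genes of sterol and fatty acid synthesis, 24 were higher and 2 lower by adjusted p, none past the fold threshold, with a median log2 fold change of 0.28. Sterol synthesis enzymes accounted for 15 of the rises, of 21 tested. Cyp51, lanosterol demethylase, stood at 2404, 2428 and 2408 in Serum/LIF and at 3815, 3677 and 3805 at 9 h (log2 fold change 0.64, SE 0.03). Insig1, which retains the SREBP complex in the ER, rose from 2287 ± 78.9 to 3540 ± 22.6 (0.63, SE 0.04). The gene of their factor, Srebf2, stood at 10159 ± 253 and 10723 ± 549, and its groups overlapped (adjusted p = 0.233). The 2 falls were of Acss2, which makes acetyl-CoA from acetate (-0.43, SE 0.09), and of Acaca, which commits acetyl-CoA to fatty acids (-0.41). Cyp51 overlaps Akap9, and Acss2 overlaps Ggt7 and Gss.

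Chaperones of the endoplasmic reticulum were higher too. Of 22 genes of the ER and the unfolded protein response, 15 were higher and 1 lower, with a median log2 fold change of 0.25. Calr, the calcium-binding chaperone calreticulin, stood at 18574, 18491 and 18476 in Serum/LIF and at 32559, 31623 and 32884 at 9 h (log2 fold change 0.81, SE 0.03, adjusted p = 7.28e-11, edgeR). Hspa5 (BiP) went from 16306, 16667 and 15268 to 23993, 24044 and 22111, by 0.54 (SE 0.05). The groups were separate in both genes. The ER-associated degradation adaptor Sel1l rose by 0.62 (SE 0.04). Of the list, 16 of 22 members were higher at 9 h than at 24 h by adjusted p and 0 lower, where 966 and 1124 of all 16049 genes were.

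**Figure D2:**
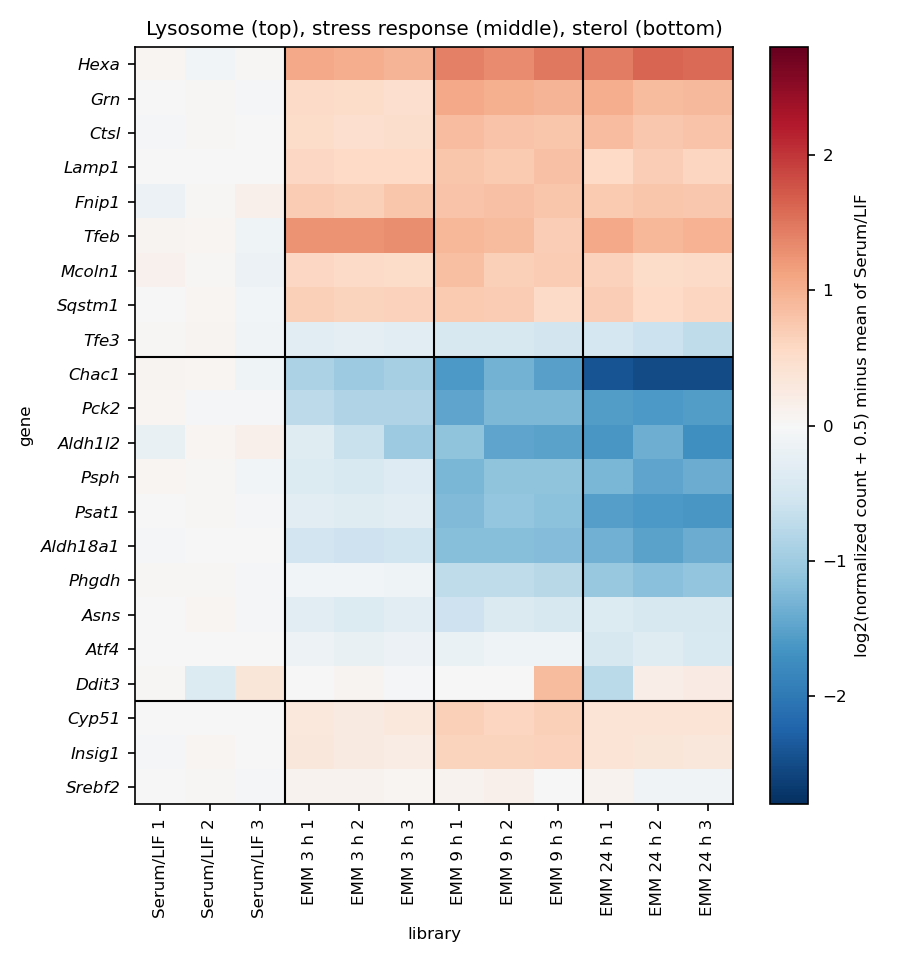
Log2 of the normalized count plus 0.5, minus the mean of the 3 Serum/LIF libraries, for 22 named genes (rows; lysosome genes on top, stress response in the middle, sterol synthesis at the bottom) in the 12 libraries of the time course (columns). Lysosome genes other than Tfe3 are red and stress response genes other than Ddit3 are blue in all 3 libraries of 9 h, Atf4 only faintly, while Ddit3 differs between the 9 h libraries.

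Of 8 enzymes of galactose entry, 3 were higher (37.5%) and 2 lower (25%), where 18.5% and 19.7% of all genes were, and nothing is read from so small a list as a whole. Galm, the mutarotase that feeds the pathway, rose from 639 ± 33.1 to 1098 ± 56.9 (log2 fold change 0.78, SE 0.06, adjusted p = 4.43e-08, edgeR). Galactokinase (Galk1), its first committed step, stood at 3922, 3584 and 3616 in Serum/LIF and at 2622, 2892 and 2933 at 9 h, a fall of 0.40 on the log2 scale (SE 0.05, adjusted p = 8.09e-06), with no overlap of libraries. The phosphoglucomutase gene Pgm2 fell by 0.49 (SE 0.06).

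Of 26 glycolysis genes, 11 were higher (42.3%) and 3 lower (11.5%), where 18.5% and 19.7% of all genes were. Pfkfb3, which makes the activator of phosphofructokinase, had the largest rise, from 706, 820 and 793 to 2154, 2601 and 2639 (log2 fold change 1.67, SE 0.08, adjusted p = 7.93e-10, edgeR). The glucose transporter Slc2a3 rose from 42914 ± 1010 to 62461 ± 1693 (0.54, SE 0.04) and hexokinase 2 (Hk2) from 13670 ± 346 to 19099 ± 1074 (0.48, SE 0.05). The subunits of lactate dehydrogenase moved apart. Ldhb stood at 2917, 3075 and 2772 in Serum/LIF and at 5179, 5382 and 5050 at 9 h (0.83, SE 0.05, adjusted p = 2.93e-09), whereas Ldha stood at 52967, 55453 and 49757 and at 41623, 45198 and 42852 (-0.29, SE 0.05, adjusted p = 0.00015). Muscle phosphofructokinase (Pfkm) fell by 0.48 (SE 0.06). Of 7 pentose phosphate genes, 2 were higher and 1 lower, with 1 and 0 without Serum/LIF replicate 1 and 3 and 0 without 9 h replicate 3.

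Of 14 genes of pyruvate entry to mitochondria, 4 were higher and 4 lower, 28.6% each way, where 18.5% and 19.7% of all genes were. Without 9 h replicate 3 the lower were 2. Pdk2, a kinase that blocks pyruvate dehydrogenase, fell from 212, 258 and 219 to 132, 121 and 95.4 (log2 fold change -0.98, SE 0.12, adjusted p = 6.3e-06, edgeR), and the opposing phosphatase gene Pdp1 fell as well, by 0.88 (SE 0.09). Of 30 genes of the TCA cycle and glutamine use, 11 were higher and 8 lower, 9 of the rises in the cycle and 6 of the falls in glutamine use. Idh2, the mitochondrial NADP-dependent isocitrate dehydrogenase, rose from 3216 ± 89.7 to 4910 ± 191 (0.61, SE 0.04). The glutaminase gene Gls2 fell from 1010 ± 68.5 to 557 ± 10.8 (-0.86, SE 0.06). Glutamine synthetase (Glul) stood at 14806, 14287 and 13826 in Serum/LIF and at 8080, 8395 and 7664 at 9 h (-0.83, SE 0.04, adjusted p = 1.43e-09), well apart.

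Nuclear genes of the respiratory chain stayed close to Serum/LIF in level. Of 71, 5 were higher and 0 lower, shares below those of all genes, with a median log2 fold change of 0.064 and values between -0.34 and 0.39. Ndufb9 of complex I had the largest rise, from 2230 ± 50.6 to 2929 ± 201 (0.39, SE 0.05, adjusted p = 1.81e-05, edgeR). This list depended on the library sets, since with the sets as a covariate 21 were higher and 1 lower, and on single libraries, since without Serum/LIF replicate 1 these were 9 and 0 and without 9 h replicate 3 they were 6 and 1. Members such as Uqcr11 (491, 465 and 1667 at 9 h) and Ndufb6 (473, 451 and 1742) stood apart in 9 h replicate 3. Of 7 tested protein-coding genes of the mitochondrial genome, 3 were higher, and 7 with the sets as a covariate. The cytochrome oxidase gene mt-Co1 went from 174519, 207163 and 179651 to 255954, 235925 and 227292 (0.36, SE 0.06, adjusted p = 0.000155). The share of all counts from protein-coding genes of the mitochondrial genome, without its ribosomal RNAs, was 1.65% ± 0.153 (SD, n = 3) in Serum/LIF and 1.96% ± 0.133 at 9 h. It was higher by 0.313 percentage points, with an exact two-sided permutation p of 0.1, the smallest that 3 against 3 allows. Of 25 fatty acid oxidation genes, 4 were higher (16%) and 7 lower (28%), where 18.5% and 19.7% of all genes were. Without Serum/LIF replicate 1 these counts were 3 and 4. Cpt1a, the gatekeeper of fatty acid import into mitochondria, rose from 2528 ± 121 to 3416 ± 113 (0.43, SE 0.04, adjusted p = 9.57e-07), Ppargc1b, a coactivator of mitochondrial genes, rose by 0.96 (SE 0.08), and Cpt2 fell by 0.44 (SE 0.06).

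Of 7 sirtuins, NAD-dependent deacylases, 3 were higher and 1 lower. Sirt1, the nuclear deacetylase, stood at 5009, 5291 and 5148 in Serum/LIF and at 8115, 7945 and 7508 at 9 h (log2 fold change 0.61, SE 0.04, adjusted p = 6.84e-09, edgeR). Mitochondrial Sirt5 fell from 216 ± 9.09 to 135 ± 5.82 (-0.67, SE 0.11). Of 15 genes of NAD metabolism, 3 were higher and 3 lower, 20% each way, near the shares of all genes (18.5% and 19.7%). Nampt, the rate-limiting enzyme of NAD salvage, rose from 7517 ± 511 to 9077 ± 446 (0.27, SE 0.05, adjusted p = 0.00068), and Qprt, of de novo synthesis, fell from 371, 339 and 349 to 150, 121 and 125 (-1.41, SE 0.09, adjusted p = 1.22e-08). Of 18 genes of AMPK and mTORC1 sensing, 4 were higher and 4 lower, 22.2% each way and again near the shares of all genes. Among them Tsc1 was higher by 0.56 (SE 0.05) and Deptor lower by 0.51 (SE 0.06), both inhibitors of mTOR.

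Of 15 targets of the oxidative stress factor Nrf2, 7 were higher and 1 lower, and the quinone reductase Nqo1 rose from 734, 732 and 750 to 1226, 1285 and 1152 (log2 fold change 0.73, SE 0.05, adjusted p = 4.67e-08, edgeR). The heme transporter Slc48a1 fell by 0.53 (SE 0.10). Of 20 hypoxia factors and targets, 8 were higher and 3 lower, and 3 rises passed the fold threshold. They were those of Bhlhe40, a repressor of the clock (1974 ± 144 to 6059 ± 431, 1.62, SE 0.07), Egln1, the main prolyl hydroxylase of HIF (1307, 1432 and 1220 to 2518, 3266 and 2730, 1.10, SE 0.10) and Ndrg1 (493 ± 44.2 to 991 ± 41.9, 1.01, SE 0.07). The target Car12 was lower, from 73.9, 74.0 and 80.6 to 26.3, 47.4 and 42.5 (-0.98, SE 0.22), and did not pass without 9 h replicate 1 (-0.74).

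Of 18 p53 targets, 2 were higher (11.1%) and 11 lower (61.1%), where 18.5% and 19.7% of all genes were. The falls were in arrest genes and death genes alike. Bbc3 (PUMA), a killer BH3 protein, stood at 1967, 2014 and 1839 in Serum/LIF and at 920, 958 and 857 at 9 h (log2 fold change -1.09, SE 0.06, adjusted p = 3.44e-09, edgeR), and Cdkn1a (p21) fell from 1274 ± 111 to 877 ± 45.8 (-0.54, SE 0.07). Of 13 Bcl2 family genes, 5 were higher and 5 lower, and without Serum/LIF replicate 1 the latter were 3. Protective Bcl2 rose from 68.3 ± 1.74 to 114 ± 13.2 (0.73, SE 0.11), and the pro-death genes Bmf and Bok fell, by 1.14 (SE 0.07) and 0.93 (SE 0.08). By role the list was mixed, with 3 of 9 pro-death genes higher and 5 lower, and 2 of 4 protective genes higher and 0 lower.

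Of 38 cell cycle genes, 5 were higher and 24 lower, with 8 of 16 G1 genes, 7 of 10 replication genes and 9 of 12 mitosis genes among the falls, and a median log2 fold change of -0.19. The D cyclins Ccnd2 (297 ± 6.33 to 139 ± 8.04, -1.10, SE 0.07) and Ccnd1 (4499 ± 174 to 2983 ± 87.2, -0.59, SE 0.04) were lower, as was the Cdk inhibitor Cdkn1c, from 2653, 2507 and 2595 to 1293, 1327 and 1288 (-0.99, SE 0.04, adjusted p = 1.25e-10, edgeR). The mitotic kinase Plk1 fell by 0.54 (SE 0.04), and the checkpoint kinase Bub1 was higher by 0.32 (SE 0.04). Of 9 genes of the Myc network, 2 were higher and 4 lower. All 3 Myc genes fell, Mycl from 506 ± 39.8 to 178 ± 12.9 (-1.51, SE 0.10), Mycn from 8539 ± 201 to 4334 ± 58.8 (-0.98, SE 0.04) and Myc from 3655 ± 117 to 2959 ± 141 (-0.30, SE 0.05), and the antagonist Mxd1 rose by 0.57 (SE 0.08).

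**Figure D3:**
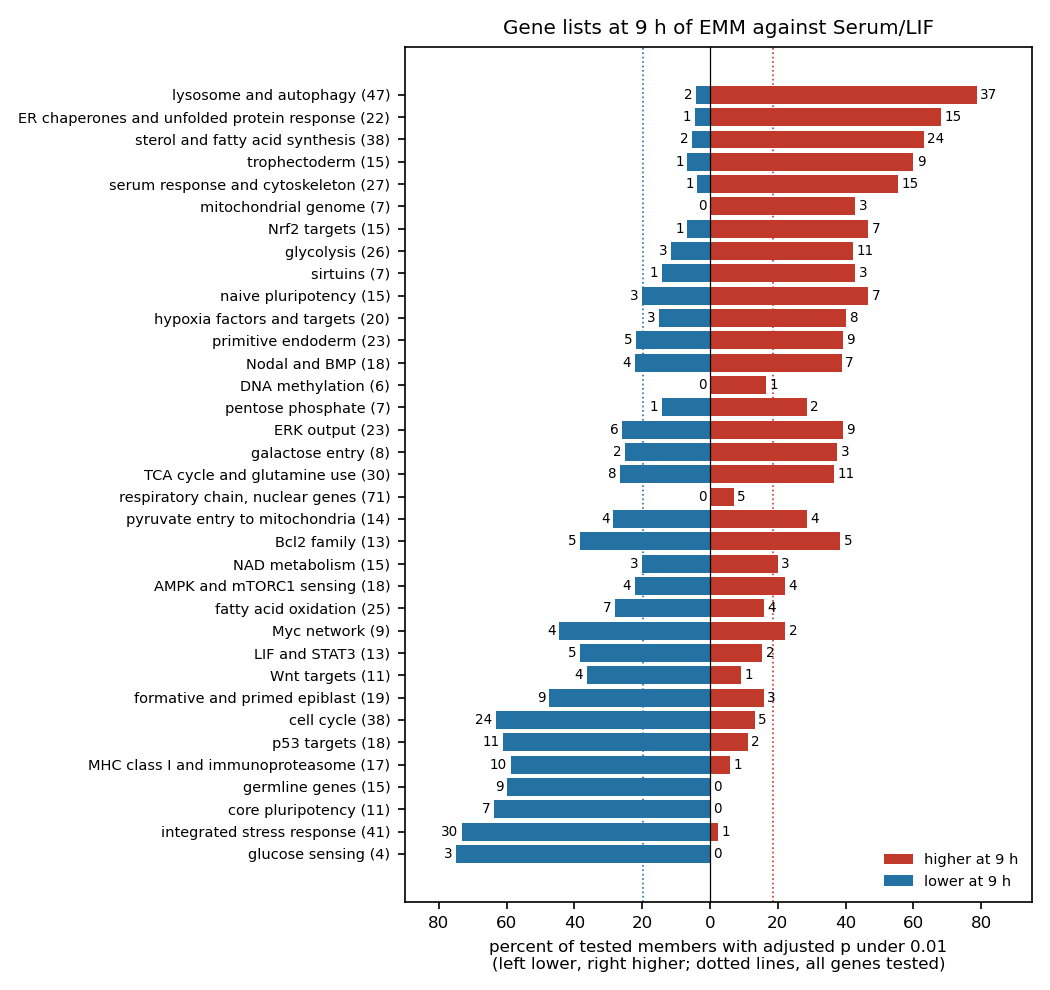
Percent of the tested members of each gene list (number in brackets) with an adjusted p under 0.01 at 9 h, lower to the left in blue and higher to the right in red, with counts at the bars and dotted lines at the shares of all genes tested, 19.7% lower and 18.5% higher. Lysosome and autophagy genes reach 37 of 47 higher, and integrated stress response genes 30 of 41 lower.

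Of 15 naive pluripotency genes, 7 were higher (46.7%) and 3 lower (20%), where 18.5% and 19.7% of all genes were. The falls were thus near the share of all genes. Tfcp2l1, a LIF-responsive naive factor, rose from 8954 ± 714 to 15743 ± 471 (log2 fold change 0.81, SE 0.05, adjusted p = 1.32e-08, edgeR), Tbx3 from 2961 ± 228 to 4935 ± 348 (0.74, SE 0.06) and Esrrb from 22782 ± 227 to 29571 ± 780 (0.38, SE 0.03). Dppa3 (Stella), of germ cells and the oocyte, fell from 501, 528 and 502 to 190, 206 and 226 (-1.30, SE 0.08), and Zfp42 (Rex1) by 0.40 (SE 0.04). Nanog stood at 13099, 12958 and 12227 in Serum/LIF and at 11854, 11736 and 12076 at 9 h, with an adjusted p of 0.0326, above the threshold used. Of 11 core pluripotency genes, 0 were higher and 7 lower, Utf1 the most (-0.68, SE 0.07), Sox2 by 0.29 (SE 0.03) from 20755 ± 297 to 16938 ± 96.0, and Pou5f1 by 0.15 (SE 0.03) from 31529 ± 384 to 28392 ± 158.

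Genes of the formative epiblast, the state after naive pluripotency, fell. Of 19 formative and primed genes, 3 were higher and 9 lower, and 8 of the 10 formative genes were lower. Dnmt3b (chr2:153649450-153687730), a de novo DNA methyltransferase, stood at 19504, 19428 and 19299 in Serum/LIF and at 7460, 7590 and 7379 at 9 h (log2 fold change -1.38, SE 0.03, adjusted p = 2.92e-13, edgeR). Dnmt3a (chr12:3806007-3914443) went from 3827, 3969 and 3810 to 1290, 1373 and 1220, by -1.58 (SE 0.05, adjusted p = 1.78e-11). Both were tight within groups and far apart between them. Otx2 fell from 729 ± 2.47 to 436 ± 38.3 (-0.74, SE 0.08) and Pou3f1 (Oct6) from 1428 ± 83.1 to 867 ± 54.4 (-0.72, SE 0.07). Of primed genes, the Wnt effector Lef1 was lower, from 194, 193 and 153 to 73.6, 51.2 and 62.2 (-1.53, SE 0.15), and the neural gene Sox1 higher, from 225 ± 4.54 to 399 ± 45.9 (0.83, SE 0.10). Of 6 other genes of DNA methylation, such as the maintenance enzyme Dnmt1 and the Tet dioxygenases, 1 was higher (Uhrf1, 0.17, SE 0.04) and 0 lower, and Uhrf1 did not pass without Serum/LIF replicate 3 or 9 h replicate 1 or 2 (0.16).

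Germline genes, many of which are silenced by promoter methylation in somatic cells, were lower in 9 of 15 and higher in 0, with a median log2 fold change of -0.77, and 5 and 4 were lower within the first and the second library set alone. Mov10l1, a piRNA helicase, stood at 151, 155 and 154 in Serum/LIF and at 66.3, 68.2 and 76.7 at 9 h (-1.13, SE 0.10, adjusted p = 3.78e-07, edgeR), and Ddx4 (Vasa) fell by 0.44 (SE 0.06). Of 17 genes of MHC class I and the immunoproteasome, 1 was higher and 10 lower. The peptide transporter Tap2 went from 96.9, 73.0 and 102 to 29.1, 37.9 and 31.1 (-1.46, SE 0.20), and H2-K1, whose close paralogs may share its reads, from 1533 ± 167 to 749 ± 49.3 (-1.03, SE 0.08). The exception was the light chain B2m, from 603, 596 and 605 to 1301, 1285 and 1246 (1.09, SE 0.06, adjusted p = 2.27e-09).

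Of 23 primitive endoderm genes, 9 were higher (39.1%) and 5 lower (21.7%), where 18.5% and 19.7% of all genes were. The falls were thus near the share of all genes. Gata6, a defining factor, stood at 31.5, 21.7 and 13.4 in Serum/LIF and at 44.5, 58.8 and 46.6 at 9 h (log2 fold change 1.18, SE 0.24, adjusted p = 0.000795, edgeR). Sox7 rose from 97.7 ± 13.2 to 219 ± 22.3 (1.16, SE 0.11) and Apoe, a secreted lipid carrier, from 25339, 22253 and 29399 to 52154, 49012 and 60144 (1.07, SE 0.12). Gata4 stood at 112 ± 9.08 and 107 ± 3.94 (adjusted p = 0.661), and Hnf4a fell from 54.1 ± 5.90 to 23.4 ± 5.22 (-1.21, SE 0.19). Sox17, at 7.27, 2.96 and 7.83 and at 15.4, 17.1 and 12.4, passed (1.34, SE 0.36, adjusted p = 0.00608) but not without Serum/LIF replicate 1 or 2 or 9 h replicate 1 or 2 (1.00 to 1.51). Factors and matrix genes held all the rises, and receptors 0 of 6.

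Of 15 trophectoderm genes, 9 were higher and 1 lower, and without Serum/LIF replicate 1 these were 6 and 2. Gata2 rose from 72.7, 70.1 and 64.9 to 203, 176 and 181 (1.43, SE 0.14, adjusted p = 1.17e-06, edgeR) and Gata3 from 31.5, 27.6 and 24.6 to 64.5, 74.9 and 70.5 (1.32, SE 0.15), and the epithelial keratin Krt8 from 2187 ± 115 to 3644 ± 137 (0.74, SE 0.06). Cdx2, the factor that sets trophectoderm, stood at 84.8, 69.1 and 58.2 and at 58.1, 46.4 and 53.9 (adjusted p = 0.0689), and Tmem54 fell from 159 ± 22.0 to 78.0 ± 11.4 (-1.03, SE 0.17).

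The shares of all genes to set beside the counts that follow were 18.5% higher and 19.7% lower. Of 23 ERK output genes, 9 were higher (39.1%) and 6 lower (26.1%), with the phosphatase Dusp1 up by 0.77 (SE 0.10) and Dusp2 down by 1.01 (SE 0.17). Of 13 genes of LIF and STAT3 signalling, 2 were higher (15.4%) and 5 lower (38.5%), with 3 lower without Serum/LIF replicate 1 and 3 without 9 h replicate 3. Socs3, its feedback inhibitor, rose from 2508 ± 241 to 4478 ± 386 (0.84, SE 0.07), and Gbx2 fell from 1246, 1231 and 1226 to 598, 657 and 587 (-1.01, SE 0.05, adjusted p = 1.32e-09, edgeR). Of 11 Wnt targets, 1 was higher and 4 lower, with Nkd2 lower by 1.17 (SE 0.12) and Tcf7 by 0.85 (SE 0.06). Of 18 Nodal and BMP genes, 7 were higher (38.9%) and 4 lower (22.2%), and without Serum/LIF replicate 1 these counts were 6 and 2. Among them Id4 was higher, from 185 ± 25.7 to 559 ± 46.0 (1.59, SE 0.09), and Skil lower by 0.64 (SE 0.05). Of 27 serum response and cytoskeleton genes, 15 were higher and 1 lower. The actins Acta1 (124 ± 8.49 to 336 ± 9.08, 1.44, SE 0.11) and Acta2 (259 ± 22.4 to 628 ± 31.4, 1.28, SE 0.11) rose, and Srf, the factor itself, was the 1 that fell (-0.41, SE 0.09).

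Set between its neighbours in time, 9 h lay nearer to 24 h than to 3 h by the number of calls. Against 3 h, 142 genes were higher at 9 h and 139 lower, 0.885% and 0.866% of those tested, and against 24 h, 59 were higher and 33 lower, 0.368% and 0.206%. These contrasts share the 9 h libraries with the one above, and every contrast with Serum/LIF shares its libraries too, so that values of genes chosen at 9 h are given side by side, as a description and not as support for the calls. Genes called higher at 9 h had a median log2 fold change against Serum/LIF of 0.91 at 3 h, 1.33 at 9 h and 1.38 at 24 h, and genes called lower of -0.79, -1.35 and -1.41. Of the 329 higher, 126 were further from Serum/LIF at 9 h than at 3 h by test and 21 nearer, and 66 were further still at 24 h and 31 nearer. Of the 561 lower, 200 were further at 9 h than at 3 h and 5 nearer, and 28 were further at 24 h and 20 nearer.

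The DNA methyltransferase Dnmt3b was at 15393 ± 144 at 3 h, 7476 ± 107 at 9 h and 7007 ± 149 at 24 h, so most of its fall came between 3 h and 9 h (9 h against 3 h -1.04, adjusted p = 4.7e-11, edgeR), and 24 h was not told from 9 h at the threshold used (adjusted p = 0.041). Lef1 was at 166 ± 16.9, 62.3 ± 11.2 and 36.0 ± 6.37. Srf was highest at 3 h, at 4554 ± 115, and below Serum/LIF at 9 h, at 1719 ± 199 (9 h against 3 h -1.40, adjusted p = 3.5e-08). Chac1 went on falling, from 352 ± 37.7 at 9 h to 176 ± 6.62 at 24 h, whereas Calr was at 27681 ± 364, 32355 ± 655 and 21825 ± 488. Egln1 stood at 1147 ± 145 at 3 h, 2838 ± 385 at 9 h and 1441 ± 118 at 24 h.

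Few genes were particular to 9 h in the sense of a call in one direction against all other 3 groups. Of all genes tested, 2 were highest at 9 h and 2 lowest, of which Btbd18 (35.6 in Serum/LIF and 11.5 at 9 h on average) was below the mean of 50 set for naming. Grin1, an NMDA receptor subunit, stood at 37.5, 57.3 and 44.8 in Serum/LIF and at 125, 215 and 218 at 9 h, with 52.3 ± 2.90 at 3 h and 69.0 ± 6.25 at 24 h. Stc1, a secreted glycoprotein of calcium balance, stood at 38.8, 41.5 and 25.7 and at 64.5, 96.7 and 96.4, with 30.9, 20.9 and 30.2 at 3 h and a mean of 13.8 at 24 h, and within the first library set alone, 2 libraries against 1 of Serum/LIF, its rise did not pass (log2 fold change 0.95). In both, 9 h replicate 1 was the lowest of the 3. Itga1, the collagen receptor subunit, stood at 55.7, 56.3 and 52.6 in Serum/LIF and at 21.8, 20.9 and 26.9 at 9 h, with 48.3 ± 7.03 and 58.0 ± 14.9, and it overlaps Pelo. Within the second library set alone, 1 library against 1 with the spread taken from other groups, the fall of Itga1 did not pass (-0.95).

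**Figure D4:**
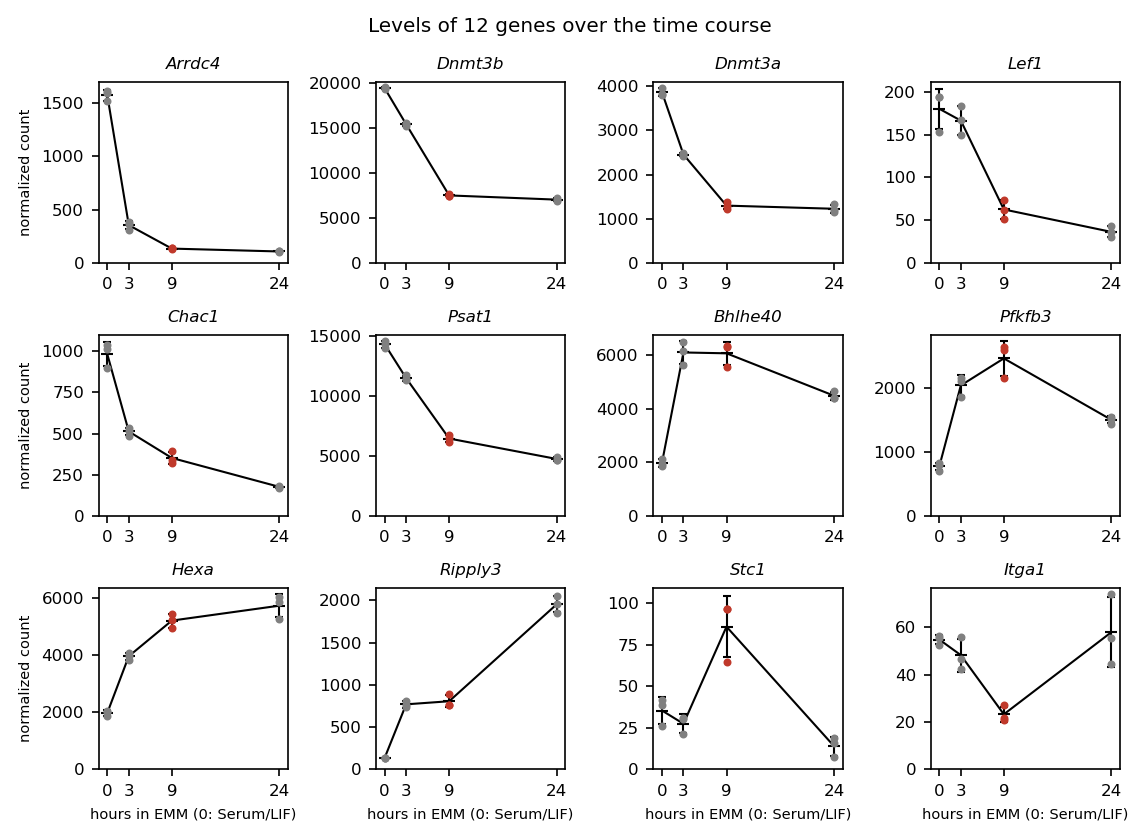
Normalized counts (vertical axes, from 0) of 12 genes against hours in EMM (horizontal axes, 0 being Serum/LIF), with 1 point per library, the 9 h libraries in red, and the mean ± SD (n = 3) joined by lines. Dnmt3b and Lef1 fall mostly between 3 h and 9 h, Ripply3 rises again between 9 h and 24 h, and Stc1 and Itga1 stand apart at 9 h.

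Other libraries were used to look at the genes called at 9 h after long culture in EMM, namely 3 libraries each of EMM and Serum/LIF after 10 passages (P10) and after 20 passages (P20). Of the 329 called higher at 9 h, 268 could be tested there, and 121 of them (45.1%) were called higher and 23 (8.58%) lower in EMM at P10, against 6.67% and 10.5% of all genes tested. At P20, 101 (37.7%) were called higher and 14 (5.22%) lower, against 3.44% and 6.19%. Of the 516 tested among the genes called lower at 9 h, 249 (48.3%) were called lower and 10 (1.94%) higher at P10, and 180 (34.9%) and 9 (1.74%) at P20. Their median log2 fold changes were 1.14 and 0.87 for genes called higher and -1.32 and -0.97 for genes called lower, with medians of all genes of 0.012 and -0.00036.

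Single genes chosen after their values were seen are given for both passages. Arrdc4 was lower in EMM by 3.93 on the log2 scale at P10 (adjusted p = 2.4e-11, edgeR) and by 4.02 at P20 (adjusted p = 6e-11). Hexa was higher by 2.02 and 2.07, Lamp1 by 0.78 and 0.84 and Grn by 1.46 and 1.20, all past an adjusted p of 0.01. Psat1 was lower by 2.47 and 1.23 and Chac1 by 2.45 and 1.62. Pck2 passed at P20 (-1.02, adjusted p = 3.2e-05, edgeR) and not at P10 (-0.22, adjusted p = 0.23), and the passages were not tested against each other. Dnmt3b was lower by 1.43 at P10 and stood at 0.02 at P20 (adjusted p = 0.9), and Dnmt3a stood at -0.41 and 0.32 with neither past the threshold. Some genes went against their direction at 9 h, as the actin gene Acta2, lower by 4.16 at P10 and 1.89 at P20, and Krt8, lower by 4.01 and 2.95.

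**Figure D5:**
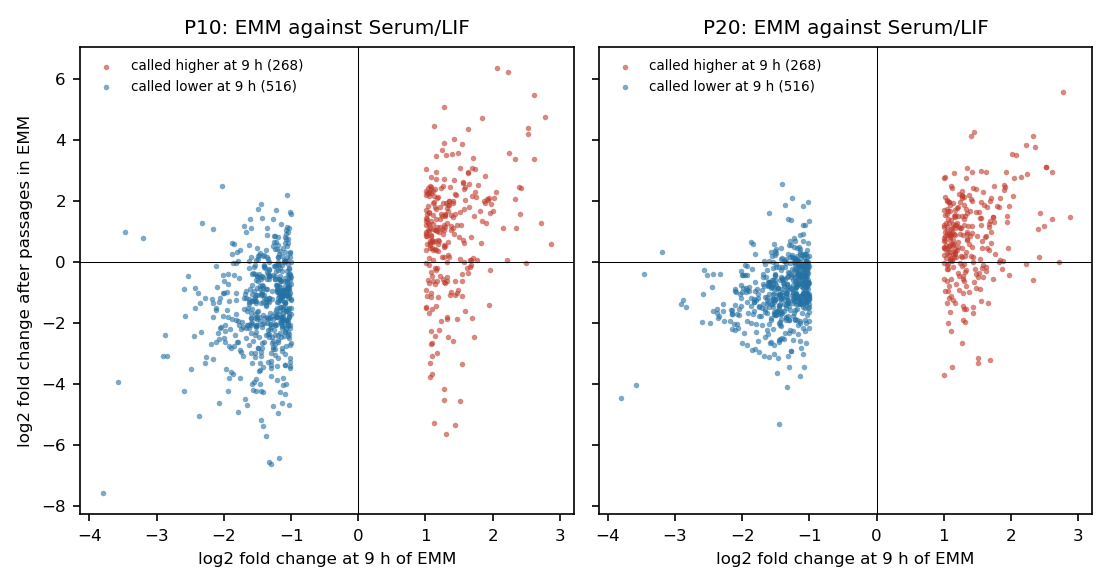
Log2 fold change of EMM against Serum/LIF after 10 (left) and 20 passages (right) on the vertical axes against that at 9 h on the horizontal axes, 1 point per gene called at 9 h and tested in both experiments (268 higher in red, 516 lower in blue). Most blue points lie below 0 and most red points above, with red points down to -5.63 at P10, and the empty band on the horizontal axis is made by the call.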

How the data were processed

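RNA-seq of E14tg2a cells was compared over 3 libraries per group. Per the labels' processing notes, the authors aligned reads to mm10 with STAR and deposited gene counts from featureCounts for the time course, while the study's methods name HTSeq, and versions, annotation and use of strand are not given in the sources used here. Values of the passaged cultures are, as deposited, estimated counts for which the processing notes list STAR and Salmon. Of these, 9.98% were not whole, and all were rounded. Ribosomal RNA had been depleted before library construction. The study describes independent experiments as replicates, but the labels do not tie libraries to cultures, so p-values measure the spread between these libraries, which may be partly technical.

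Of 52630 genes in the time-course table, 16049 passed filterByExpr. All 12 libraries entered one fit with 4 groups and no covariate, with TMM scaling and the quasi-likelihood F-test of edgeR 4.0.16 (limma 3.58.1, R 4.3.3), and p-values were adjusted over all genes tested by Benjamini-Hochberg. A call needed an adjusted p under 0.01 and a log2 fold change over 1 in size, while list members were counted by adjusted p under 0.01 alone. The SE is the log2 fold change divided by the square root of F. Genes at 3 counts or fewer in every library of a group were given no fold. Passage libraries were fitted apart in the same way, over 16054 genes, with the 2i/LIF groups in the same fit. On counts simulated from the Serum/LIF means with 200 changed genes, 86 of 100 changes of log2 1.5 and 97 of 100 of log2 3 were called, and 0 unchanged genes. The simulated counts held no library sets and no change at 3 h or 24 h. They therefore do not give the rate of false calls in these data.

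Named genes were the 12 largest rises and falls and the 6 smallest p in each direction among called genes without overlap of libraries and with a mean of 50 or more, the largest rise and fall that passed in each list, genes highest or lowest at 9 h of all groups under the same filters, and Sirt1, Nanog, Cpt1a and Cdx2 (Txnip, also set out, was not analysed here), with a further 71 and other list members chosen after their values were seen. The comparison and the lists were chosen with earlier results of these data known. Symbols and coordinates came from GENCODE M21 (GRCm38), promoters from RefSeq. Alternatives were other scalings, filters and thresholds, DESeq2 1.42.0, replicate blocks, each library left out, and, chosen after seeing the data, the library sets. Depth limits the precision of genes of low count. Other assays of the series were not used here, and a few list members are not reported here by name.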

Additional observations from a re-analysis of the deposited data

Results flagged for a closer look

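Named genes were listed here where 9 h differed from a neighbouring time by the test of that difference and by over 1 on the log2 scale (edgeR's quasi-likelihood test, adjusted p under 0.01). This held for 5 of 175 against 24 h and 21 of 175 against 3 h. The contrasts share the 9 h libraries, and many of the genes were chosen for their value at 9 h.

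Against 24 h, 9 h was higher for Stc1 by 2.62, Tmem54 by 1.62 and Grin1 by 1.42, and lower for Itga1 (-1.32) and Ripply3 (-1.28).

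Against 3 h, 9 h was higher for Dcn, a matrix proteoglycan (1.89), Grin1 (1.83), Tll1 (1.79), Stc1 (1.64), Egln1 (1.31), Cemip (1.22) and Gpr139 (1.00). It was lower for the germ cell surface gene Tex101 (-1.96), which did not pass against Serum/LIF without 9 h replicate 1, for Myh3 (-1.64), the homeobox gene Emx2 (-1.57), Arrdc4 (-1.41), Lef1 (-1.41), Srf (-1.40), Meioc (-1.27), Slc24a1 (-1.14), Prss50 (-1.14), Dnah2 (-1.08), Itga1 (-1.06), Dnmt3b (-1.04), Bcas1 (-1.04) and Spn (-1.01). Dcn and Tex101 were of very low level. Raw counts of Dcn were 6, 3 and 2 at 3 h and 13, 13 and 15 at 9 h, and those of Tex101 were 9, 13 and 19 at 3 h and 1, 5 and 4 at 9 h.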

How the results depend on the processing

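No named gene that passed against Serum/LIF changed direction under any alternative run. Of the counts for 9 h against Serum/LIF (329 higher, 561 lower), those asking for at least 10 counts in every library gave 211 and 369, where only 13940 genes were tested, and those without a fold threshold 2967 and 3164. Against 3 h these settings gave 94 higher and 76 lower, and 2191 and 2065. Against 24 h, the number higher (59) became 37 with at least 10 counts, 38 with DESeq2, 35 within the first library set, 966 without a fold threshold and 93 at an adjusted p under 0.05, and the number lower (33) became 55 without a filter, 51 within the second set, 1124 without a fold threshold and 57 at an adjusted p under 0.05. For the filter and thresholds these shifts follow from how the settings are built, and for DESeq2 and the sets the cause was not tested. Leaving out 1 library at a time, against Serum/LIF 302 to 352 genes were higher and 493 to 567 lower, against 3 h 122 to 150 and 117 to 144, and against 24 h 46 to 69 and 31 to 39, and the difference in mitochondrial share was 0.241 to 0.397 percentage points. Other scalings moved the median of all genes by at most 0.026 on the log2 scale.

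Within the first set 260 genes were higher and 449 lower, and within the second set 304 and 406. Each set holds 1 Serum/LIF library, and the second also 1 of 9 h, and such a lone library is assumed to vary like those of the other groups. With the replicate number of the titles as a block, 316 genes were higher and 558 lower, and with that of the descriptions 299 and 495. The numbers were not taken to pair the samples. The correlation of same-numbered deviations from group means, over 11080 genes, was 0.05, 0.48 and 0.57 by title and 0.43 and -0.40 by description. By title, each 9 h library of numbers 2 and 3 correlated best with its own number in Serum/LIF, and number 1 did not. Of the 175 named genes, the title block ended the pass of 1 (Sox17) and the description block that of 7, leaving out a 9 h library that of 6 to 9 and a Serum/LIF library that of 5 to 6.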
